A study of Mus musculus with 47 samples.

Results

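The 42 genes described here encode lysosomal hydrolases and their precursors, subunits of the lysosomal proton pump, and proteins of the lysosomal membrane. They were chosen as a list of symbols, and each symbol was matched to the Ensembl mouse gene identifier of a row in the count tables of both brain regions. All 42 were found among 33139 rows for brainstem and 31751 rows for hippocampus, and all 42 passed the filter on low counts, a mean of at least 50 reads per library, which left 13340 genes to test in brainstem, 13272 in hippocampus and 13458 in both regions together. The list holds 22 luminal genes (20 hydrolases, and the precursors *Psap* and *Grn*), 13 pump subunits (5 of the membrane sector V0 and 8 of the cytosolic sector V1) and 7 membrane genes, with the transcription factor gene *Tfeb* counted among the last.

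Expression had been measured by sequencing of poly(A) RNA from male C57BL/6 mice at 12 months of age. TG mice came from a homozygous colony that expresses the h[A30P]αSYN transgene from the neuronal Thy1 promoter, and WT mice came from a colony kept in parallel after the same outcross, so that genotype and colony cannot be told apart. From weaning on, both genotypes received a standard diet (SD) or a high fat diet (HFD). Each of the 4 groups (WT SD, WT HFD, TG SD, TG HFD) had 6 libraries in each region, apart from WT SD brainstem with 5, since 1 RNA sample had failed quality control, which gave 23 libraries of brainstem and 24 of hippocampus.

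Lysosomal hydrolases are made in the endoplasmic reticulum, travel to the lysosome and work there at acid pH on proteins, glycans and lipids. The acid is made by the V-type ATPase, in which the V1 sector splits ATP and drives a rotor that moves protons through V0; in neurons the same pump also energizes the filling of synaptic vesicles. Many genes for lysosomal proteins share a promoter element with the letters CACGTG at its core, which factors of the TFEB family bind.

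Library totals ranged from 10020784 to 15078812 reads in brainstem and from 11945971 to 17328447 in hippocampus. *Slc6a5*, a gene of glycinergic hindbrain neurons, ranged from 248.8 to 466.2 CPM (reads of a gene relative to the scaled library total) in brainstem libraries and did not exceed 0.5166 CPM in hippocampus. The dissected tissue is a mixture of cells, and fewer cells of a type and less RNA per cell cannot be told apart.

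Promoter sequence is shown first, because it is shared by members of all classes and was not used to choose them. RefSeq windows from 250 bases before to 50 bases after an annotated gene start (build GRCm38.p6) were matched by symbol for 37 of the 42 members, which had 44 windows; *Ctsb*, *Asah1*, *Atp6v1b2*, *Atp6v1c1* and *Atp6v1h* were not matched. The letters CACGTG read the same on both strands, and so do the longer letters TCACGTGA, which contain them. CACGTG was present for 14 of the 37 members (37.8%), while 2187 of all 27025 genes with a window had it (8.09%). TCACGTGA was present for 6 of the 37 members (16.2%) and for 304 of all genes (1.12%). A comparison list of 64 further lysosomal genes had windows for 47. Of these, 9 had CACGTG (19.1%) and 5 had TCACGTGA (10.6%), so the letters were not particular to the members. By class, CACGTG was found for 9 of 20 luminal genes, 2 of 7 membrane genes and 3 of 10 pump genes, and TCACGTGA for 3, 1 and 2 of them. Such a match is a description of letters and no evidence of binding in these animals.

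The stretches below hold 1 TCACGTGA each, in capitals, and are shown since they are the longer matches of the luminal, membrane and pump members; *Lamp1* is added because its window held the largest number of matches of CACGTG among the members, 4, of which 1 is printed.
*Ctsa*, chr2:164833749-164833778, + strand: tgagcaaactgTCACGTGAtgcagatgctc
*Ctsd*, chr7:142387908-142387937, - strand: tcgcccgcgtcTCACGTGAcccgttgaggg
*Gla*, chrX:134601182-134601211, - strand: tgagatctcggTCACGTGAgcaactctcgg
*Mcoln1*, chr8:3500462-3500491, + strand: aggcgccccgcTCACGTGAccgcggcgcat
*Atp6v0d1*, chr8:105566050-105566079, - strand: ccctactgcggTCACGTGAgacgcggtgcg
*Atp6v1a*, chr16:44139373-44139402, - strand: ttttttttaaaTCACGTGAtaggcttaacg
*Lamp1*, chr8:13159088-13159117, + strand: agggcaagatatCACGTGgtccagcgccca
The first base of CACGTG lay 12 bases before the start in *Ctsa*, 98 in *Ctsd*, 194 in *Gla*, 45 in *Mcoln1*, 3 in *Atp6v0d1*, 131 in *Atp6v1a* and 61 in *Lamp1*. The other 7 members with CACGTG were *Ctsf*, *Ctsl*, *Glb1*, *Gaa*, *Arsa*, *Naglu* and *Atp6v0b*.

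Levels of different genes were compared as CPM per kilobase of merged exon, and each value is the mean of the 4 group means of a region. The luminal genes spanned the widest range. *Psap*, which encodes the precursor of the saposins that present sphingolipids to hydrolases, was the highest, with 509.3 in brainstem and 526.9 in hippocampus. *Galc*, the enzyme that cleaves the myelin lipid galactosylceramide, was the lowest, with 2.172 and 1.527. With the longest transcript as the length, *Naglu* took the lowest place in both regions. That length raised 11 members of brainstem by over 1.5 times, among them *Galc* (7.279), *Lamp2* (42.93), *Mcoln1* (17.71), *Tfeb* (4.036), *Atp6v1b2* (257.9), *Atp6v0b* (104.7) and *Ctsf* (26.44), which then stood above *Ctsl* (20.58), so the order of members near each other depends on the length used.

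Among the proteases, the cysteine protease gene *Ctsb* (129.5 in brainstem and 86.31 in hippocampus, CPM per kilobase) and the aspartic protease gene *Ctsd* (105.3 and 68.33) stood far above the tripeptidyl peptidase gene *Tpp1* (15.03 and 12.01) and the other cathepsin genes. Those were *Ctsz* (28.05 and 17.82), *Ctsl* (19.56 and 10.73), *Ctsa* (19.11 and 15.49) and *Ctsf* (10.98 and 8.13). *Ctsb* and *Ctsd* were thus the second and the third luminal gene of brainstem.

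The glycosidase genes were led by *Gaa*, the acid alpha-glucosidase that degrades glycogen, at 60.20 CPM per kilobase in brainstem and 72.37 in hippocampus. Below it came *Hexa* (21.36 and 19.49), the sialidase gene *Neu1* (12.59 and 12.01), the beta-galactosidase gene *Glb1* (8.045 and 6.487), *Gla* (6.484 and 3.63), the alpha-mannosidase gene *Man2b1* (5.887 and 5.408), *Gusb* (3.902 and 2.676) and the heparan sulfate enzyme gene *Naglu* (2.793 and 2.734). Of the genes for lipid, thioester and sulfate hydrolases, *Ppt1* stood at 36.18 and 27.10, the sphingomyelinase gene *Smpd1* at 25.41 and 26.13, the ceramidase gene *Asah1* at 21.37 and 11.94, and the arylsulfatase gene *Arsa* at 7.628 and 6.306. *Grn*, the progranulin gene, reached 11.18 and 13.87.

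The pump subunit genes lay closer together and mostly higher. In brainstem they ran from *Atp6v1h* (20.77 CPM per kilobase) to *Atp6v1b2* (137.3), and in hippocampus from *Atp6v1h* (16.42) to *Atp6v0c* (196.3), the gene of the proteolipid that forms the rotor. Other V0 genes were *Atp6v0e2* (112.6 in brainstem and 146.4 in hippocampus), *Atp6v0d1* (99.19 and 110.4), *Atp6v0b* (51.04 and 51.54) and *Atp6v0a1* (42.08 and 64.83). Other V1 genes were *Atp6v1g2* (116.2 and 186.4), the catalytic *Atp6v1a* (86.84 and 121.6), *Atp6v1e1* (75.92 and 76.74), *Atp6v1f* (64.69 and 58.99), *Atp6v1d* (39.95 and 48.49) and *Atp6v1c1* (39.85 and 44.58), and *Atp6v1b2* stood at 127.3 in hippocampus.

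Among the membrane genes, *Lamp1*, one of the most abundant proteins of the lysosomal membrane, was the highest, with 179.4 CPM per kilobase in brainstem and 92.16 in hippocampus. *Tfeb* was the lowest, with 1.667 and 0.8066. In between were *Scarb2* (39.65 and 23.72), the receptor that carries glucocerebrosidase to the lysosome, *Tmem106b* (26.83 and 29.59), *Lamp2* (16.20 and 8.824), the calcium channel gene *Mcoln1* (6.773 and 5.496) and the potassium channel gene *Tmem175* (3.801 and 4.727).

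**Figure D1:**
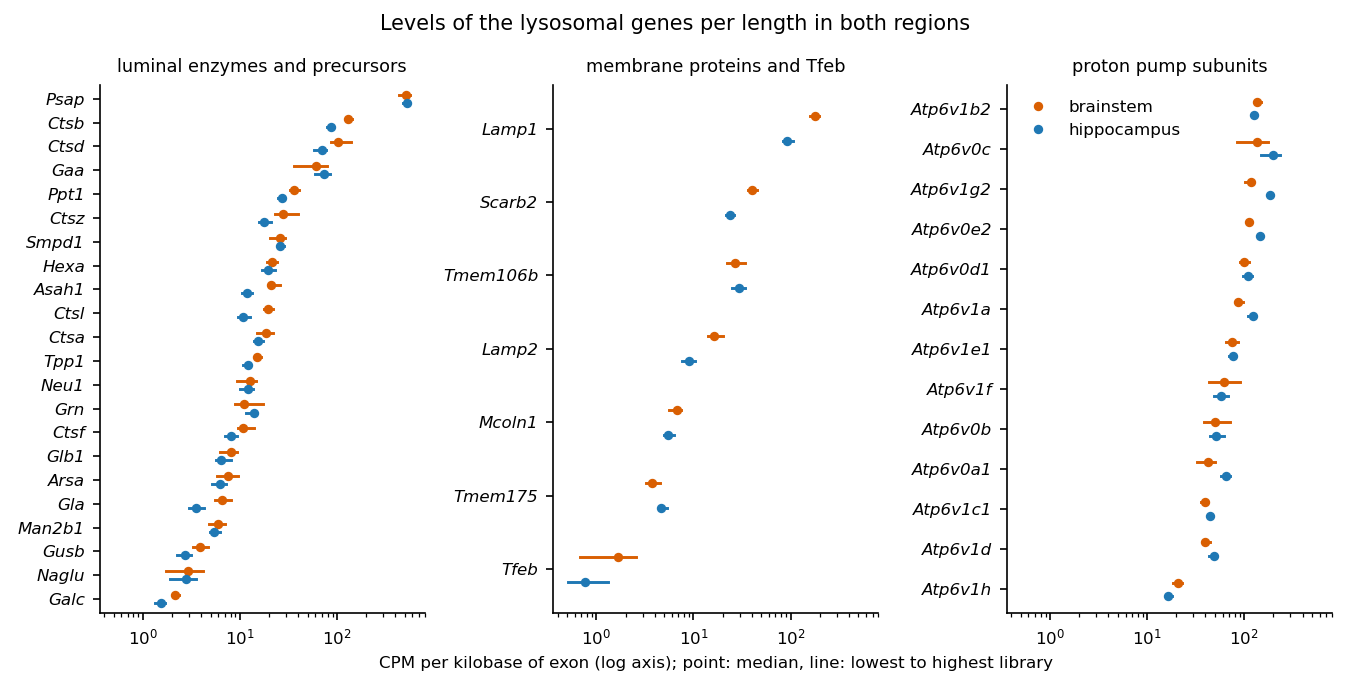
Levels of the 42 genes as CPM per kilobase of merged exon on a log axis, in 3 panels by class, with the median over the 23 brainstem (orange) and 24 hippocampal (blue) libraries as a point and the lowest and highest library as the ends of a line. *Psap* stood highest and *Tfeb* lowest, and the pump subunits were packed between 16.42 and 196.3 by their means.

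The regions were compared in 1 model over all 47 libraries, as the difference of hippocampus from brainstem averaged over the 4 groups. A gene was called when its Benjamini-Hochberg adjusted p from edgeR's quasi-likelihood test was at most 0.05 and its absolute log2 fold change at least 0.3. By this rule 60.2% of the 13458 genes were called, 29.2% higher in hippocampus and 31% higher in brainstem, so the region separated most genes, and the members' counts are to be read against those shares. The 95% interval of a log2 fold change is given where it matters, and p-values weigh a difference against the spread between libraries. The study took both regions from the animals of a group, and the labels do not say which libraries share an animal, so this model treats all 47 as independent.

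The luminal genes were mostly higher in brainstem. Of the 22, 13 were called higher in brainstem, 1 was called higher in hippocampus and 8 were not called; the median log2 fold change was -0.32, beside -0.02 over all 13458 genes. The proteases moved together, since all 7 of them were called higher in brainstem. For 11 of the 22 every brainstem library lay above every hippocampal library, which held for 17.3% of all tested genes.

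The largest luminal difference was that of *Ctsl*, cathepsin L, a cysteine protease. Its level ran from 115.4 to 143 CPM in brainstem libraries (median 127.5) and from 61.32 to 81.49 CPM in hippocampus (median 69.26). The ranges did not overlap, and the log2 fold change was -0.87 ± 0.03 (SE; edgeR, adjusted p = 7.16e-32). *Asah1*, the acid ceramidase gene, ran from 65.35 to 87.55 CPM over the brainstem libraries (median 71.63) and over hippocampal libraries from 35.61 to 44.97 CPM (median 40.17), again without overlap, with a log2 fold change of -0.84 ± 0.03 (edgeR, adjusted p = 1.14e-32).

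*Gla*, the alpha-galactosidase that removes galactose from globotriaosylceramide, ran from 18.12 to 26.13 CPM over the brainstem libraries (median 21.16) and over hippocampal libraries from 9.82 to 14.02 CPM (median 11.56). Its log2 fold change was -0.84 ± 0.04 (edgeR, adjusted p = 7.45e-25), and the ranges stayed apart. *Ctsz*, a carboxypeptidase of the cathepsin family, ran from 33.21 to 57.46 CPM (median 39.91) and from 22.61 to 30.17 CPM (median 25.27), with a log2 fold change of -0.65 ± 0.04 (edgeR, adjusted p = 4.29e-19) and no overlap.

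The other luminal genes called higher in brainstem differed by less. Log2 fold changes were -0.62 for *Ctsd*, -0.59 for *Ctsb*, -0.54 for *Gusb*, -0.51 for *Galc*, -0.43 for *Ctsf*, -0.42 for *Ppt1*, -0.32 for *Tpp1*, -0.31 for *Glb1* and -0.30 for *Ctsa*. The last 3 lay at the fold threshold. Of 61 other analyses, 47 left out 1 library each, and the rest changed a setting or used fewer groups or libraries. *Tpp1* remained called in 56, *Glb1* in 52 and *Ctsa* in 38. Leaving out 1 library ended the call of *Tpp1* in 0 cases, of *Glb1* in 1 and of *Ctsa* in 14. The other losses fell in the rest. *Ctsl*, *Asah1*, *Gla*, *Ctsz*, *Ctsd*, *Ctsb*, *Gusb*, *Galc*, *Ctsf* and *Ppt1* remained called in all 61. The sign of none of these 13 turned in any of them.

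*Grn* was the only luminal gene called higher in hippocampus. It ran from 31.01 to 60.47 CPM over the brainstem libraries (median 38.32) and over hippocampal libraries from 40.49 to 52.49 CPM (median 49.02), so the ranges overlapped, and the log2 fold change was 0.31 ± 0.04 (edgeR, adjusted p = 3.49e-09). Without TG HFD library 3 of brainstem the value was 0.296 and under the threshold, and for the TG HFD groups in the same model it was 0.16 (edgeR, adjusted p = 0.0713). *Gaa* had a log2 fold change of 0.27 (95% interval 0.15 to 0.38) and was not called.

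The remaining luminal genes stayed under the fold threshold. *Arsa*, *Hexa* and *Man2b1* were lower in hippocampus all the same (edgeR, adjusted p = 2.92e-08, 0.000191 and 0.000371). *Arsa* had a log2 fold change of -0.27, *Hexa* of -0.13, *Man2b1* of -0.12, *Neu1* of -0.07, *Naglu* of -0.03 (95% interval -0.16 to 0.11), *Smpd1* of 0.04 and *Psap* of 0.05 (95% interval 0.00 to 0.10). For *Psap*, the most abundant member, libraries ran from 1193 to 1553 CPM over the brainstem libraries and over hippocampal libraries from 1329 to 1555 CPM, with wide overlap.

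**Figure D2:**
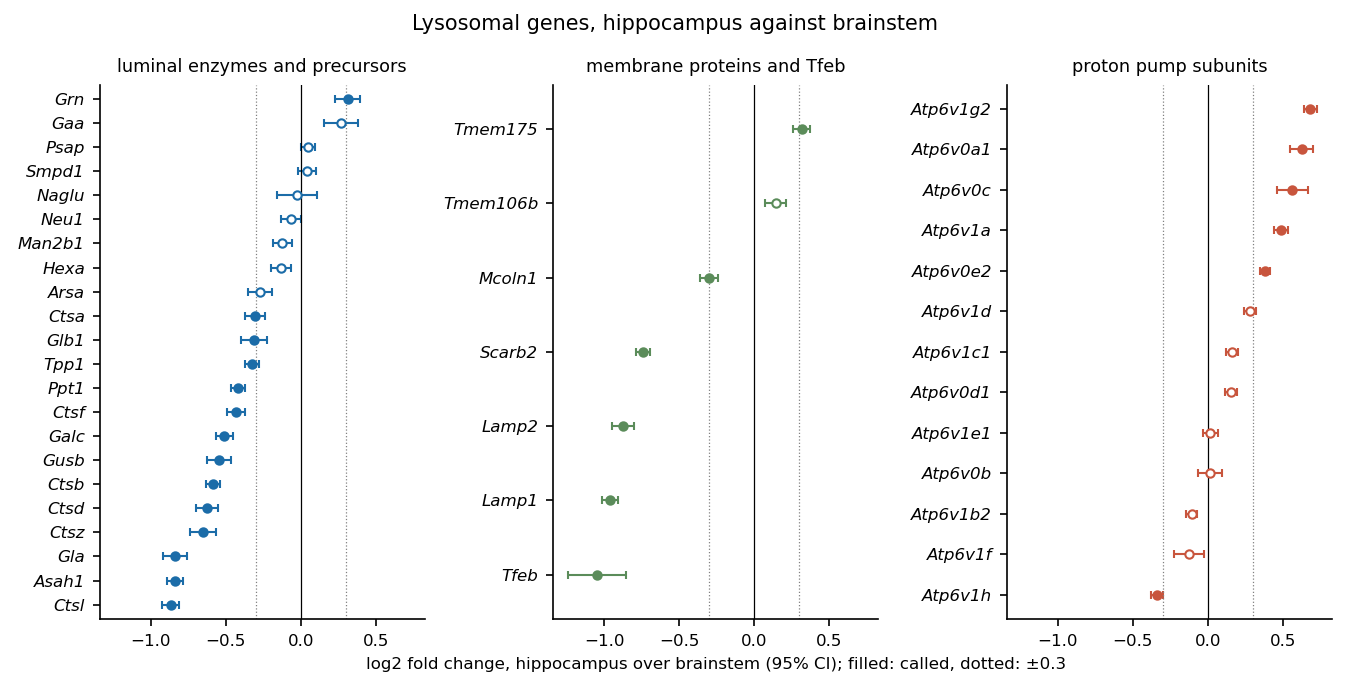
Log2 fold change of hippocampus over brainstem for each member, in 3 panels by class, with its 95% confidence interval; filled points were called, open points were not, and dotted lines mark an absolute log2 fold change of 0.3. Luminal and membrane genes lay mostly left of 0 (higher in brainstem, down to -1.05 for *Tfeb*), and pump subunits mostly right of 0 (up to 0.68 for *Atp6v1g2*).

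Of the 7 membrane genes, 5 were called higher in brainstem, 1 was called higher in hippocampus and 1 was not called, with a median log2 fold change of -0.74. *Lamp1* ran from 424.4 to 525.8 CPM over the brainstem libraries (median 482.7) and over hippocampal libraries from 224.9 to 281.7 CPM (median 245.2). The ranges were far apart, and the log2 fold change was -0.96 ± 0.03 (edgeR, adjusted p = 6.31e-35). *Lamp2*, which also serves as the receptor of chaperone-mediated autophagy, ran from 135.9 to 190.7 CPM and from 72.43 to 98.04 CPM without overlap, with a log2 fold change of -0.88 ± 0.04 (edgeR, adjusted p = 1.07e-27).

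*Scarb2* ran from 230.6 to 283.3 CPM over the brainstem libraries and over hippocampal libraries from 135.7 to 164.6 CPM, with a log2 fold change of -0.74 ± 0.02 (edgeR, adjusted p = 1.12e-32). These 3 genes separated the regions in every library. *Tfeb* had the largest difference of all 42, -1.05 ± 0.10 (edgeR, adjusted p = 4.78e-14), but with 3.866 to 14.6 CPM in brainstem (median 9.542) and 2.878 to 7.486 CPM in hippocampus (median 4.274) its libraries overlapped. It was the only member past an absolute log2 fold change of 1, which 18.4% of all genes passed.

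*Tmem175* went the other way. It ran from 19.23 to 26.72 CPM over the brainstem libraries (median 22.28) and over hippocampal libraries from 25.98 to 31.8 CPM (median 27.43), overlapping at the ends, and its log2 fold change was 0.31 ± 0.03 (edgeR, adjusted p = 4.36e-14). It remained called in 56 of 61 other analyses and was lost, among others, with library totals alone, with surrogate variables and with the replicate block. *Mcoln1*, at -0.30, stood on the fold threshold and was called in 27 of 61 other analyses, while *Tmem106b* had a log2 fold change of 0.14 and was not called in any.

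**Figure D3:**
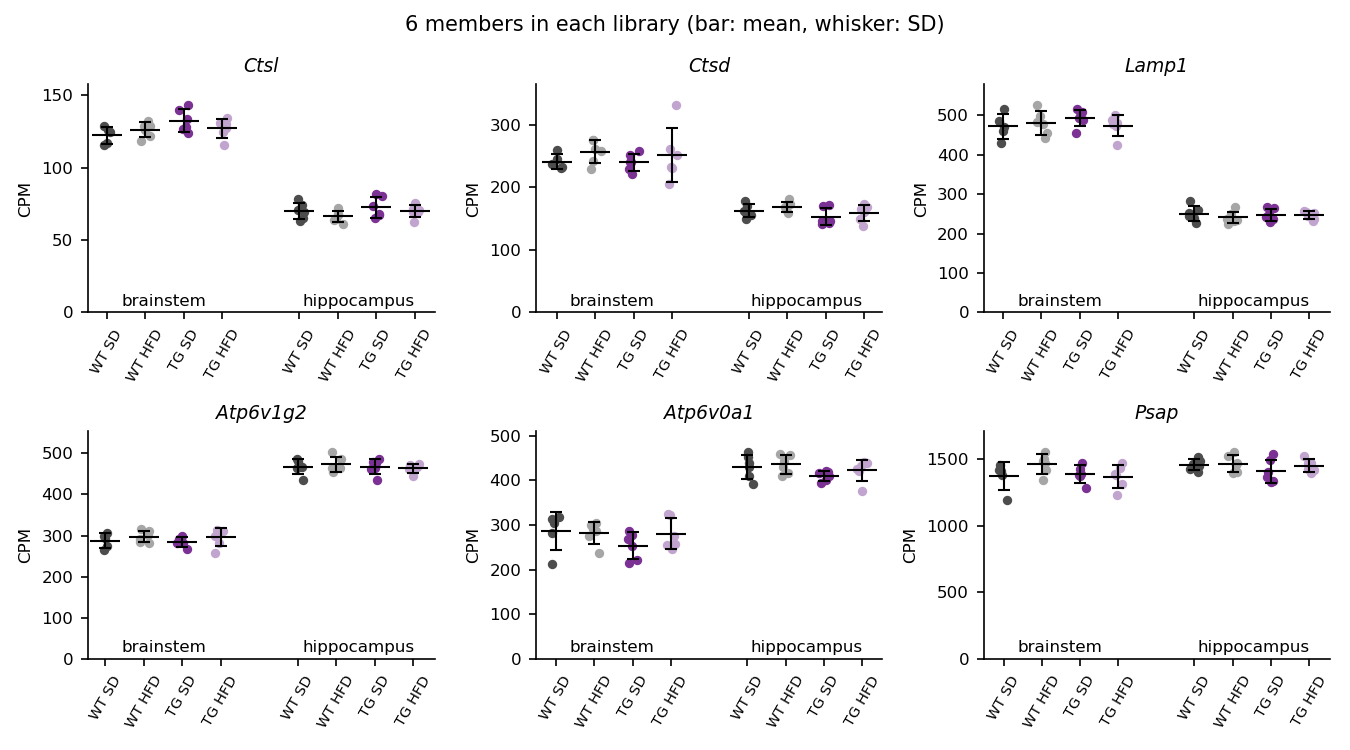
CPM of *Ctsl*, *Ctsd*, *Lamp1*, *Atp6v1g2*, *Atp6v0a1* and *Psap* in every library, by region and group (1 point a library), with the group mean as a bar and the SD as a whisker. *Ctsl*, *Ctsd* and *Lamp1* were higher in every brainstem library, *Atp6v1g2* and *Atp6v0a1* in every hippocampal library, and *Psap* overlapped between the regions.

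The pump subunits did not share the direction of the luminal genes. Of 13, 5 were called higher in hippocampus, 1 was called higher in brainstem and 7 were not called, with a median log2 fold change of 0.16. For 4 of them every hippocampal library lay above every brainstem library, which held for 17.7% of all tested genes.

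*Atp6v1g2*, a stalk subunit found mainly in neurons, had the largest difference. It ran from 258.7 to 315.9 CPM over the brainstem libraries (median 292.7) and over hippocampal libraries from 434.9 to 504 CPM (median 466.6). The ranges did not overlap, and the log2 fold change was 0.68 ± 0.02 (edgeR, adjusted p = 1.93e-31). *Atp6v0a1*, the a subunit isoform of synaptic vesicles, ran from 213.1 to 325.1 CPM (median 277.3) and from 375.5 to 464.4 CPM (median 424), also apart, with a log2 fold change of 0.62 ± 0.04 (edgeR, adjusted p = 2.20e-20).

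*Atp6v0c*, which encodes the c subunit of the rotor, ran from 283.6 to 594.7 CPM over the brainstem libraries (median 461) and over hippocampal libraries from 509.4 to 792.1 CPM (median 671.3). Its ranges overlapped, and the log2 fold change was 0.56 ± 0.05 (edgeR, adjusted p = 1.81e-14). *Atp6v1a*, the subunit that splits ATP, ran from 490.1 to 583 CPM and from 660.4 to 808.7 CPM without overlap, with a log2 fold change of 0.49 ± 0.02 (edgeR, adjusted p = 4.29e-25). *Atp6v0e2* completed the 5, at 0.38, and all 5 remained called in all 61 other analyses.

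*Atp6v1h*, a regulatory subunit that links V1 to V0, was the one subunit higher in brainstem. It ran from 180.3 to 221.1 CPM there (median 202.7) and from 149.6 to 174.8 CPM in hippocampus (median 160.8), without overlap, with a log2 fold change of -0.34 ± 0.02 (edgeR, adjusted p = 2.22e-20). It remained called in 56 of the 61 other analyses, and no loss came from leaving out 1 library. The 7 subunits that were not called spread from -0.13 for *Atp6v1f* and -0.11 for *Atp6v1b2* over 0.02 for *Atp6v0b* and *Atp6v1e1* to 0.15 for *Atp6v0d1*, 0.16 for *Atp6v1c1* and 0.28 for *Atp6v1d*. Neither sector moved as a unit: of the V0 genes 3 were called higher in hippocampus, and of the V1 genes 2 were called higher and 1 lower.

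Some pump genes on the list have a paralog outside it that can take the same place in the pump. *Atp6v1g1*, the widely expressed counterpart of *Atp6v1g2*, fell from 76.54 CPM per kilobase in brainstem to 53.75 in hippocampus (log2 fold change -0.51 ± 0.03; edgeR, adjusted p = 6.62e-21), while *Atp6v1g2* rose. The share of *Atp6v1g2* in the sum of both, per length, ran from 54.5% to 64% over brainstem libraries and from 75.3% to 79.8% over hippocampal libraries. *Atp6v0e*, the counterpart of *Atp6v0e2*, stood at only 4.731 and 3.355 CPM per kilobase and was also called lower in hippocampus, with a log2 fold change of -0.49 ± 0.06 (edgeR, adjusted p = 2.02e-10).

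The a subunits, compared after their values were seen, split in the same way: *Atp6v0a2* (log2 fold change -0.37; edgeR, adjusted p = 1.36e-18) and *Tcirg1*, which encodes a3 (-1.09; edgeR, adjusted p = 4.79e-20), were called higher in brainstem, against *Atp6v0a1*. The share of *Atp6v0a1* in its sum with *Atp6v0a2* ran from 78.5% to 84.4% in brainstem and from 88.6% to 91.4% in hippocampus.

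**Figure D4:**
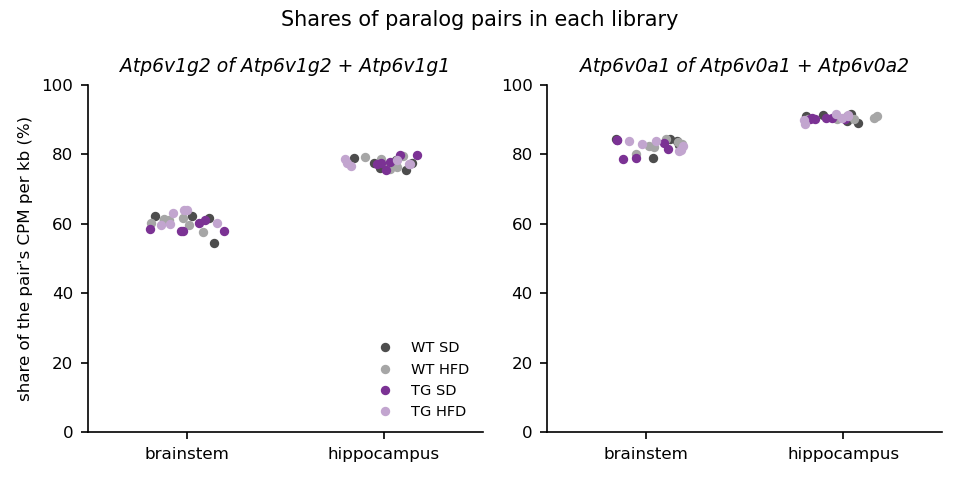
Share of the first gene in the summed CPM per kilobase of a pair, in percent, for *Atp6v1g2* with *Atp6v1g1* and *Atp6v0a1* with *Atp6v0a2*, with 1 point a library coloured by group. Both pairs separated the regions in every library (at most 64% against at least 75.3%, and at most 84.4% against at least 88.6%).

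All 26 members called between the regions kept their sign in each of the 4 groups, and 19 passed both thresholds in each. The other 7 fell short in at least 1 group: *Ctsa*, *Tpp1* and *Atp6v1h* in WT SD (-0.28, -0.29 and -0.28), *Glb1* in WT HFD and TG HFD (-0.299 and -0.284), and *Mcoln1*, *Tmem175* and *Grn* in TG HFD (-0.22, 0.23 and 0.16). In the 4 groups *Ctsl* had log2 fold changes from -0.93 to -0.81, *Lamp1* from -0.996 to -0.914 and *Atp6v1g2* from 0.65 to 0.71. In a test of whether the region difference varied among the groups, 0.0223% of all genes passed an adjusted p of 0.05, and no member did (edgeR, adjusted p = 0.999 for each).

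Cell type markers differed between the regions too. All 7 oligodendrocyte markers were called higher in brainstem, with a median log2 fold change of -2.13 and a summed level of 12480 to 20970 CPM against 3039 to 4712 CPM, and 4 of 5 endothelial markers were called higher in brainstem (summed 237.3 to 307.7 against 140.5 to 196.2 CPM). Of 8 microglial markers 4 were called higher in hippocampus and none in brainstem, and their sums overlapped (259.7 to 446 against 318.8 to 420 CPM). Of 7 neuronal markers 3 were called in each direction (5297 to 6082 against 5542 to 6495 CPM), of 6 astrocytic markers 2 were called higher in hippocampus and 3 in brainstem (2584 to 3472 against 3985 to 5028 CPM), and all 4 markers of hippocampal principal cells were higher in hippocampus. Ependymal markers summed to 11.52 to 29.39 CPM in brainstem and 6.743 to 14.02 CPM in hippocampus. The part of these cells in the members' differences was not tested.

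Choroid plexus markers varied most between libraries, with sums of 12.01 to 2952 CPM in brainstem and 37.97 to 314.9 CPM in hippocampus. In 11 brainstem libraries they exceeded every hippocampal library. Without those 11, 23 members were called between the regions in place of 26, and the calls of *Grn* (log2 fold change 0.29), *Tmem175* (0.28) and *Mcoln1* were lost.

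The comparison list of 64 further lysosomal genes holds other hydrolases, transport receptors, membrane proteins and regulators. Of 56 tested between the regions, 30 were called higher in brainstem and 8 higher in hippocampus, with a median log2 fold change of -0.32. Among the largest differences towards brainstem were those of *Scpep1* (-1.28), a serine carboxypeptidase, *Npc2* (-1.24), the cholesterol carrier of the lumen, and *Lgmn* (-1.15), asparagine endopeptidase. The largest towards hippocampus were those of *Sort1* (1.29), the sorting receptor sortilin, the sulfatase genes *Arsb* (1.05) and *Galns* (0.86), and the phospholipase gene *Pla2g15* (0.69).

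Genotype and diet were then compared within each region, in 1 model of its 4 groups with 4 surrogate variables, which are estimated sources of variation other than the groups. Over all genes, in brainstem 0.142% were called for TG SD over WT SD, 0.0525% for TG HFD over WT HFD, 0% for WT HFD over WT SD, 0.0075% for TG HFD over TG SD and 0.0075% for the interaction of genotype and diet. In hippocampus the shares were 0.0904%, 0.226%, 0%, 0% and 0%. Few genes thus passed in any contrast. At the same thresholds, and also with surrogate variables, the study reported more differential genes in each region. The absence of calls below is therefore that of a fit that called fewer genes. No member was called by edgeR in any of the 10 contrasts, and none by DESeq2.

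At an unadjusted p of at most 0.05, edgeR gave, in the same order, 6, 2, 1, 0 and 0 of 42 members in brainstem and 2, 3, 3, 3 and 2 in hippocampus; DESeq2 gave 6, 1, 1, 0 and 0, and 3, 3, 2, 3 and 3. The shares of all genes at that p with edgeR were 10.5%, 5.59%, 5.43%, 6.91% and 4.83% in brainstem and 9.08%, 11.3%, 6.4%, 7.08% and 5.98% in hippocampus. These counts depended on the number of surrogate variables: for TG HFD over WT HFD brainstem edgeR gave 11 members without any, for the brainstem interaction 8 with 2 of them, and for TG HFD over WT HFD hippocampus 11 with 2 of them, of which 5 had an adjusted p of at most 0.05. With 4, the lowest adjusted p of any member was 0.248 (edgeR). Member log2 fold changes then stayed within -0.29 and 0.27 in the 8 contrasts of 2 groups, and for no pump subunit did a 95% interval reach beyond 0.161 from 0 on the log2 scale in any of them. That limit does not hold without surrogate variables, where *Atp6v0b* was at -0.240 for TG HFD over WT HFD brainstem. It was neither the only subunit with lower CPM there nor the one with the largest relative fall. The mean CPM of *Atp6v0c* and *Atp6v1f* fell by more, and their fold changes without surrogate variables are not given here. *Atp6v0c* ran from 432.7 to 594.7 CPM in WT HFD and from 283.6 to 524.1 CPM in TG HFD. *Atp6v1f* ran from 62.2 to 96.63 CPM in WT HFD and from 45.88 to 70.77 CPM in TG HFD. Both overlapped between the groups. With 4 surrogate variables, the intervals of luminal and membrane genes reached up to 0.616 from 0, so their differences were bounded less closely.

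**Figure D5:**
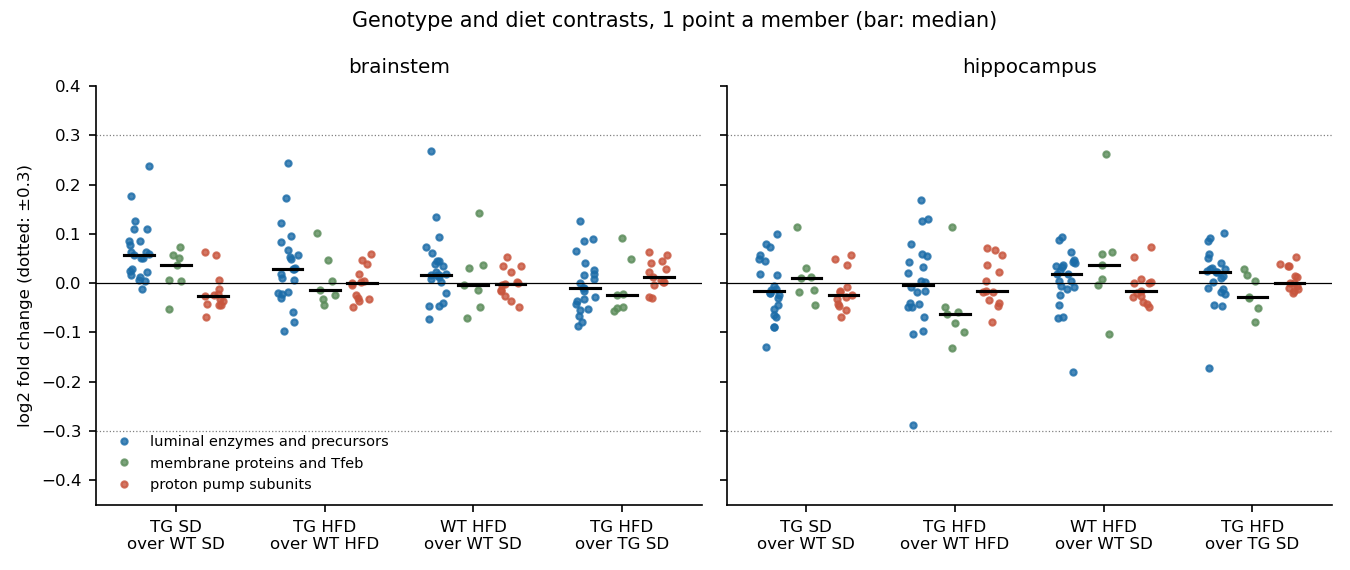
Log2 fold changes of the 42 members in the 4 contrasts of 2 groups in brainstem (left) and hippocampus (right), coloured by class, with the class median as a bar and dotted lines at an absolute log2 fold change of 0.3. All points lay inside the dotted lines, between -0.29 and 0.27.

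In TG SD over WT SD brainstem, 21 of 22 luminal genes had a positive log2 fold change, with a median of 0.06, beside 50.6% positive over all genes; 3 of 13 pump subunits were positive. The luminal count was 15 of 22 without surrogate variables and 17 to 22 when single libraries were left out (17 without WT SD replicate 8). Markers of other cells were read in the same contrast: the median log2 fold change was 0.147 for astrocytes (3 of 6 at an unadjusted p of at most 0.05; summed 2584 to 2926 CPM in WT SD and 2608 to 3237 CPM in TG SD), 0.0812 for microglia (2 of 8; 288.2 to 341.9 and 301.4 to 347.2 CPM), 0.0696 for endothelium (2 of 5, 1 of them called; 237.3 to 286.5 and 258.2 to 302.4 CPM) and -0.056 for neurons (0 of 7; 5582 to 5969 and 5323 to 5976 CPM). Their part in the luminal values was not tested. *Gaa* had the smallest p. It ran over 189.9, 276.5, 291.5, 326.3 and 330.7 CPM in WT SD and from 173.5 to 310.7 CPM in TG SD (median 277.5), and the groups overlapped fully. Its log2 fold change was 0.11 ± 0.04 (edgeR, adjusted p = 0.282), and without surrogate variables it was -0.10.

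*Tmem106b*, a regulator of lysosome size and transport and a risk gene of frontotemporal dementia, ran over 163.6, 167.9, 184.8, 195.3 and 200.4 CPM in WT SD brainstem and from 183.9 to 229.1 CPM in TG SD (median 196.4). The groups overlapped, and the log2 fold change was 0.07 ± 0.03 (edgeR, adjusted p = 0.435). *Atp6v1b2* had the smallest p of the pump subunits, at -0.07 ± 0.03 (edgeR, adjusted p = 0.464).

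In TG HFD over WT HFD brainstem, *Ctsz* ran from 33.8 to 43.68 CPM in WT HFD (median 41.65) and from 33.21 to 57.46 CPM in TG HFD (median 42.52). The medians were close and the groups overlapped. The log2 fold change with surrogate variables was 0.24 (95% interval 0.05 to 0.44; edgeR, adjusted p = 0.816). *Lamp1* (0.05) and *Atp6v0b* (0.06) led their classes by p and turned sign in some analyses with fewer surrogate variables.

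In the diet contrasts of brainstem, *Hexa*, the alpha chain of beta-hexosaminidase, had the smallest luminal p in both genotypes. It ran over 37.91, 39.68, 39.69, 40.71 and 41.82 CPM in WT SD and from 42.23 to 48.52 CPM in WT HFD (median 44.14). All WT HFD libraries lay above all WT SD libraries, but the log2 fold change was 0.14 ± 0.06 and was not called (edgeR, adjusted p = 0.896). In TG mice it was 0.09 ± 0.05 (edgeR, adjusted p = 0.783), with overlapping ranges of 38.52 to 48.48 CPM in TG SD and 41.92 to 46.16 CPM in TG HFD. The membrane and pump genes with the smallest p were *Mcoln1* (-0.07) and *Atp6v1d* (-0.05) in WT mice, and *Tmem106b* (-0.06) and *Atp6v1c1* (0.06) in TG mice, none called.

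In TG SD over WT SD hippocampus, *Ctsd* ran from 148.9 to 178 CPM in WT SD (median 160.3) and from 141.2 to 171.3 CPM in TG SD (median 145.8). *Atp6v0d1*, a V0 subunit that ties the rotor to the shaft, ran from 195.9 to 212.3 CPM (median 201.8) and from 175.9 to 212.6 CPM (median 188.1). Both pairs of groups overlapped, with log2 fold changes of -0.07 ± 0.03 each and adjusted p of 0.494 and 0.472 (edgeR). *Lamp1* led the membrane genes, at -0.04 ± 0.03.

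In TG HFD over WT HFD hippocampus, *Gaa* ran from 350.2 to 404.4 CPM in WT HFD (median 369.2) and from 327.7 to 383.1 CPM in TG HFD (median 339.4). The TG HFD libraries thus tended to be lower, whereas the fit with surrogate variables gave 0.13 ± 0.05 (edgeR, adjusted p = 0.248) and the fit without them -0.09. *Scarb2* and *Atp6v0b* led their classes by p, both at -0.08 ± 0.04 and not called. *Atp6v0c* ran from 673.4 to 792.1 CPM in WT HFD and from 560 to 669.1 CPM in TG HFD, without overlap. It was not called either, and with surrogate variables no pump subunit was below -0.0778 in this contrast. The mean CPM of *Atp6v0c*, which are not adjusted for surrogate variables, fell by more than that limit. Its fold change without them is not given here.

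*Naglu*, which acts in the breakdown of heparan sulfate, and *Tfeb* were the only members called in any analysis within a region, always in this contrast. *Naglu* ran from 6.868 to 9.28 CPM in WT HFD (median 8.304) and from 5.035 to 8.182 CPM in TG HFD (median 5.684). *Tfeb* ran from 4.493 to 7.486 CPM in WT HFD (median 5.623) and from 2.962 to 5.31 CPM in TG HFD (median 3.795). Most TG HFD libraries lay below WT HFD for both genes, with overlap.

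With 4 surrogate variables *Naglu* had a log2 fold change of -0.29 ± 0.16 (edgeR, adjusted p = 0.519) and *Tfeb* of -0.13 ± 0.18 (edgeR, adjusted p = 0.842). Without any, *Naglu* was at -0.41 ± 0.12 (edgeR, adjusted p = 0.0331) and *Tfeb* at -0.49 ± 0.17 (edgeR, adjusted p = 0.0741), and with 2 of them both were called, at -0.42 and -0.49 (edgeR, adjusted p = 0.0190 and 0.0311). An offset for the GC content of genes, again without surrogate variables, brought them to -0.19 (edgeR, adjusted p = 0.539) and -0.16 (edgeR, adjusted p = 0.706). Libraries of these groups differed in how their counts followed GC content: the median slope per 10% of GC was 0.117 on the log2 scale in WT HFD hippocampus and -0.0556 in TG HFD. With 4 surrogate variables, astrocytic markers had a median log2 fold change of -0.123 there (3 of 6 at an unadjusted p of at most 0.05). It was -0.147 for endothelial (2 of 5), -0.0992 for microglial (2 of 8) and 0.0292 for neuronal markers (0 of 7). The sums of these lists overlapped between the groups. Markers of hippocampal principal cells had a median of -0.117 (1 of 4). Their sums stayed apart, with 592 to 637.1 CPM in WT HFD and 555.6 to 590.1 CPM in TG HFD. The part of these cells was not tested.

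In the diet contrasts of hippocampus, *Galc* ran from 21.76 to 25.3 CPM in WT SD (median 23.19) and from 19.93 to 23.34 CPM in WT HFD (median 20.62). All but 1 of the WT HFD libraries lay below all WT SD libraries, and the log2 fold change was -0.18 ± 0.06, not called (edgeR, adjusted p = 0.635). In TG mice *Gaa* had a log2 fold change of 0.10 ± 0.03 (edgeR, adjusted p = 0.413), with 286.7 to 363.7 CPM in TG SD and 327.7 to 383.1 CPM in TG HFD. *Mcoln1* (-0.10) and *Atp6v0b* (0.07) led their classes in WT mice and *Tmem175* (-0.08) and *Atp6v1h* (0.05) in TG mice, none called.

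Single libraries weighed on the members as well. In brainstem, TG HFD library 3 had the lowest CPM of 23 libraries for 16 of the 42 members, among them 7 luminal and 7 pump genes, and it also had the lowest GC slope of the region, -0.326 per 10% of GC. No member was called within brainstem with or without it.

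The 64 further lysosomal genes gave a like picture within regions. Among them is *Atp13a2*, which the study names with genes whose adaptation failed in TG HFD mice. Of 57 tested in brainstem and 56 in hippocampus none was called in any contrast by edgeR or by DESeq2, while 1 to 7 of them per contrast had an unadjusted p of at most 0.05 with edgeR. *Npc2* in TG HFD over WT HFD hippocampus had an adjusted p of 0.0276 (edgeR) without reaching the fold threshold, at a log2 fold change of -0.24. In that contrast 1 of the 56 was called in each of 6 analyses with 0, 1 or 2 surrogate variables.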

How the data were processed

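Per the labels, RNA was poly(A)-selected and sequenced as single-end reads, and the submitters' processing notes name FastQC 0.11.9, STAR 2.7.9a and DESeq2 1.32.0; the counting tool and its strand setting were not given in the sources used here, so overlapping genes may share reads. The authors deposited raw read counts per Ensembl gene, 1 table a region, which were used without change. Genes whose counts averaged 50 or more per library were kept. Counts were scaled by TMM and tested with edgeR 4.0.16 (quasi-likelihood, R 4.3.3): within a region in 1 model of 4 groups with 4 surrogate variables (sva 3.50.0), between regions in 1 model of 8 groups without them. P-values were adjusted over all genes tested by Benjamini-Hochberg. CPM were scaled over both regions together; lengths and GC content came from GENCODE M21, and promoter windows from RefSeq. In each contrast the member of each class with the smallest p was named, and between regions those with the largest change. *Naglu* and *Tfeb* were named because they were called in an alternative. *Atp6v0c* and *Atp6v1f* were named within a region after their values were seen. The members and lists were chosen with earlier results of these data known. The code was tested on simulated data, and alternatives covered normalization, filter, surrogate variables, DESeq2 1.42.0, offsets, replicate block and single libraries. Some genes are not reported here.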

Additional observations from a re-analysis of the deposited data

Results flagged for a closer look

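The groups examined held CPM of members named by smallest p within a region, CPM of *Naglu* and *Tfeb* in hippocampus, or class means of log2 CPM. Among these 112 groups, 3 held a library far from the others of its group, where chance marks about 1 in 20 groups. *Tmem106b* in TG SD brainstem reached 229.1 CPM in replicate 1, with the next library at 199.3 CPM. *Tmem106b* in TG HFD brainstem reached 234.4 CPM in replicate 3, with the next library at 191.6 CPM. *Galc* in WT HFD hippocampus reached 23.34 CPM in replicate 7, with the next library at 21.03 CPM.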

How the results depend on the processing

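Between regions, 22 to 26 members were called in the alternatives at the fold threshold of 0.3 (23 with DESeq2 and 23 with the replicate block), and 1 at a fold threshold of 1 on the log2 scale, where 10 of the other lysosomal genes were called. Within regions, 0 members were called in most alternatives. For TG HFD over WT HFD hippocampus the count was 1 with 0 surrogate variables, 2 with 1 and 2 with 2. Also with 0 surrogate variables, it was 1 with a length offset, 1 with only these groups and 2 with the replicate block. With the replicate block and surrogate variables it was 0. Leaving out single libraries kept 0 within regions; between regions, of 47 libraries left out in turn, 14 ended the call of *Ctsa* and 24 that of *Mcoln1*, and 1 each ended those of *Glb1* (WT SD brainstem replicate 4, -0.299) and *Grn* (TG HFD brainstem replicate 3, 0.296). Whether replicate numbers pair the libraries of both regions is not settled: same-numbered libraries of a group correlated with a median r of 0.103 and exceeded 0.1 in 9 of 17 pairs, against -0.0216 and 30 of 121 pairs with other numbers, and the labels do not tie numbers to animals. With the replicate block between regions, *Ctsa*, *Mcoln1* and *Tmem175* lost their calls. In the following, values are log2 fold changes that changed sign, in the order 0 surrogate variables, length offset, replicate block, and only 2 groups. All of these, and each GC offset, were fitted with 0 surrogate variables. *Gaa* in TG SD over WT SD brainstem was at -0.100, -0.0982, -0.102 and -0.100, and in TG HFD over WT HFD hippocampus at -0.0900, -0.0791, -0.0894 and -0.0900 (-0.0877 with 1 and -0.0871 with 2 surrogate variables). *Scarb2* in the latter was at 0.0519, 0.0551, 0.0537 and 0.0519 (0.0522 with 1, 0.0498 with 2, 0.00871 with a GC offset). *Atp6v0b* in TG HFD over WT HFD brainstem was at -0.240, -0.156, -0.251 and -0.244 (-0.237 with 1, -0.116 with 2, -0.130 with a GC offset, -0.0711 with a filter on total count). *Lamp1* there was at -0.0157 with 0 surrogate variables, -0.0273 with 1, and, again with 0, -0.0210 with the block and -0.0202 with 2 groups. In the diet contrasts of brainstem, *Mcoln1* was at 0.00671 with the block and 0 surrogate variables, *Atp6v1d* at 0.0324 with a GC offset, and *Tmem106b* at 0.0120 with 1 surrogate variable and 0.0113 with a GC offset. The cause of these shifts was not tested. The analyses without libraries high in choroid plexus markers were chosen after seeing the data.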
